A study of Mus musculus with 35 samples.

Results

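The deposited lists of genomic regions bound by RNA polymerase II (Pol II) in mouse macrophages stimulated with lipopolysaccharide (LPS) were compared between 360 and 240 min. Libraries were taken by their titles: 1 Pol II library at 360 min (letter A) and both Pol II libraries at 240 min (letters A and B), which are 3 of the 7 Pol II libraries and of the 35 libraries in all. The 3 lists held 15820 of the 250088 deposited regions. The study applied chromatin immunoprecipitation with sequencing (ChIP-seq) to 6 targets in primary macrophages grown from mouse bone marrow, before and during exposure to LPS, a membrane component of Gram-negative bacteria that activates macrophages. All cells came from wild-type female C57BL/6 mice aged 8 to 12 weeks, and no transgene, knockout or other agent than LPS is named. The other Pol II libraries were 1 from unstimulated cells (A), 2 from 60 min (A and B) and 1 from 120 min (A). Nothing in the labels says whether libraries came from separate animals or cultures, and the dose of LPS is not given in the sources used here.

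Pol II transcribes protein-coding genes and many noncoding RNAs. It can sit in a narrow peak at a transcription start, where it pauses, and over the whole body of a gene that is being transcribed, so that wide regions of Pol II are known from active genes. In macrophages LPS starts successive waves of transcription, from genes induced within minutes to later genes whose induction needs newly made proteins. Acetylation of histone H4 (H4ac) marks open chromatin at active promoters and enhancers. With 1 library at 360 min there is no replicate spread at that time, so no test was made. Where they bear on a count or share, values between the libraries of 240 min or of 60 min are given beside it. A region that is missing from a list was not called there, which does not show that Pol II was absent.

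The 360 min list was the shortest and covered the least of the genome of the 7 Pol II lists. It held 2948 regions, against 5144 and 7728 in lists A and B of 240 min, which is 0.573 and 0.381 times their number. Of these, 2636 at 360 min and 4590 and 7014 at 240 min were up to 100 kb wide. That limit was used for Pol II unless another is named, and 10 kb for H4ac and the transcription factors. Regions of 1 list that overlapped were then joined, which left 2025 at 360 min and 3746 and 5963 at 240 min. The joined regions covered 22.4 Mb at 360 min, 58.6 Mb in 240 min A and 87.0 Mb in 240 min B. Both 240 min lists thus lay above the 360 min list, by 2.62 and 3.89 times, while 240 min B exceeded 240 min A by 1.48 times. The 4 earlier lists covered 66.8 Mb (unstimulated), 59.2 and 79.2 Mb (60 min A and B) and 48.7 Mb (120 min), so none was as small as that of 360 min. The number of sequenced reads behind each list is unknown, and its part in these differences was not tested.

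The regions at 360 min were also narrower. Their median width was 730 bp, against 3150 and 4355 bp at 240 min and 1430 to 4700 bp in the 4 earlier lists. Regions of up to 200 bp made up 26.6% of the 360 min list, 8.15% and 3.85% of the 240 min lists and 4.33% to 10.6% of the earlier ones. Regions of 10 to 100 kb made up 19.2% at 360 min, and 31.6% and 31.9% at 240 min. Few regions had a width close to the 100 kb limit. There were 20 regions of 90 to 100 kb and 27 of 100 to 110 kb at 360 min, 44 and 36 in 240 min A, and 69 and 53 in 240 min B.

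To compare lists of 1 length, each was also restricted to its 2636 best-scored regions. The score is a value the authors gave each region, and ranks were taken inside 1 list at a time. The list of 360 min stayed whole in this comparison, with scores down to 0.0004. Those of 240 min kept only regions scored at 0.9159 (A) and 1.6792 (B) or better. Covered length was then 33.7 and 26.5 Mb at 240 min against 22.4 Mb at 360 min, and the unstimulated list covered 21.3 Mb. Much of the gap in covered length was therefore gone at equal length. The restricted 240 min lists had a median width of 4130 and 4310 bp, so the 730 bp of the 360 min list remained the narrowest of the 7, below the 1570 bp of the unstimulated list.

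**Figure D1:**
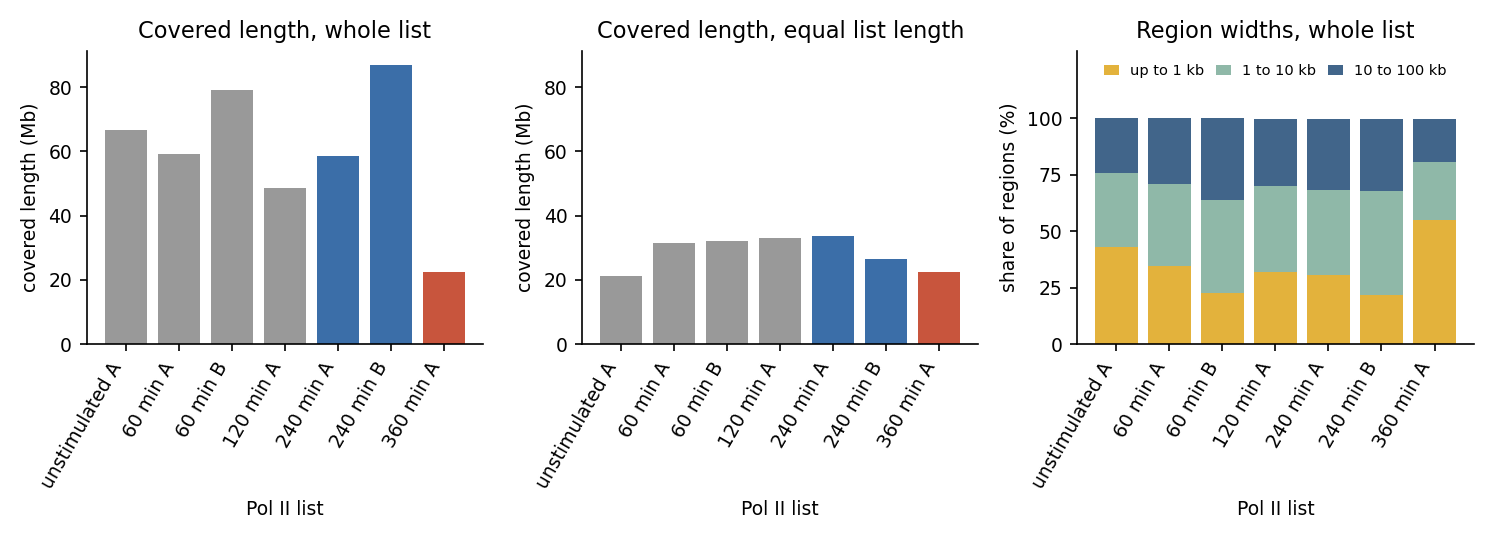
Covered length in Mb of each Pol II list with all its regions up to 100 kb (left) and with its 2636 best-scored regions (middle), and the share of regions in 3 width classes (right). The 360 min list covers 22.4 Mb in both, the smallest value on the left but not in the middle, and 55.2% of its regions are up to 1 kb wide.

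Nearly all wide Pol II regions of 360 min were already present at 240 min. Of the 2025 joined regions at 360 min, 75.1% touched a region of 240 min A, 78.4% one of 240 min B and 83.3% (1686) at least 1 of them. By width, 493 of 495 regions over 10 kb (99.6%) and 98.0% of those of 1 to 10 kb touched a 240 min list, but only 68.6% of the 1042 regions up to 1 kb. In the other direction, 53.9% of the joined regions of 240 min A and 50.4% of those of 240 min B touched the 360 min list. Between the 240 min libraries, 87.3% of the regions of A touched B and 77.5% of those of B touched A. The 360 min regions were thus mostly contained in the 240 min lists: 81.6% and 84.4% of the base pairs at 360 min lay in 240 min A and B. Of the base pairs of A and B, 31.2% and 21.7% lay in the 360 min list. The reverse was excluded by size, since 22.4 Mb at 360 min cannot cover most of 58.6 or 87.0 Mb.

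The Jaccard index, the length 2 lists share divided by the length they cover jointly, was 0.291 between 360 min and 240 min A and 0.209 between 360 min and 240 min B. It was 0.494 between the 240 min libraries and 0.554 between the 60 min libraries. With the earlier lists the 360 min list gave 0.292 (120 min), 0.203 and 0.178 (60 min A and B) and 0.184 (unstimulated). At equal length the values for 360 min were 0.4 and 0.409 with 240 min A and B, 0.339 with 120 min, 0.26 and 0.253 with 60 min and 0.232 with unstimulated cells. The order then followed time, with 240 min nearest and unstimulated farthest. Both values with 240 min still lay under those of the libraries of 1 time (0.528 at 240 min and 0.608 at 60 min) and under the 0.48 and 0.422 between 120 min and 240 min A and B. The titles begin with a number that has the form of a date. It is the same for the 360 min library and for the A libraries of 60 and 120 min and differs from those of both 240 min libraries, so a difference of that date and a difference of time cannot be told apart.

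**Figure D2:**
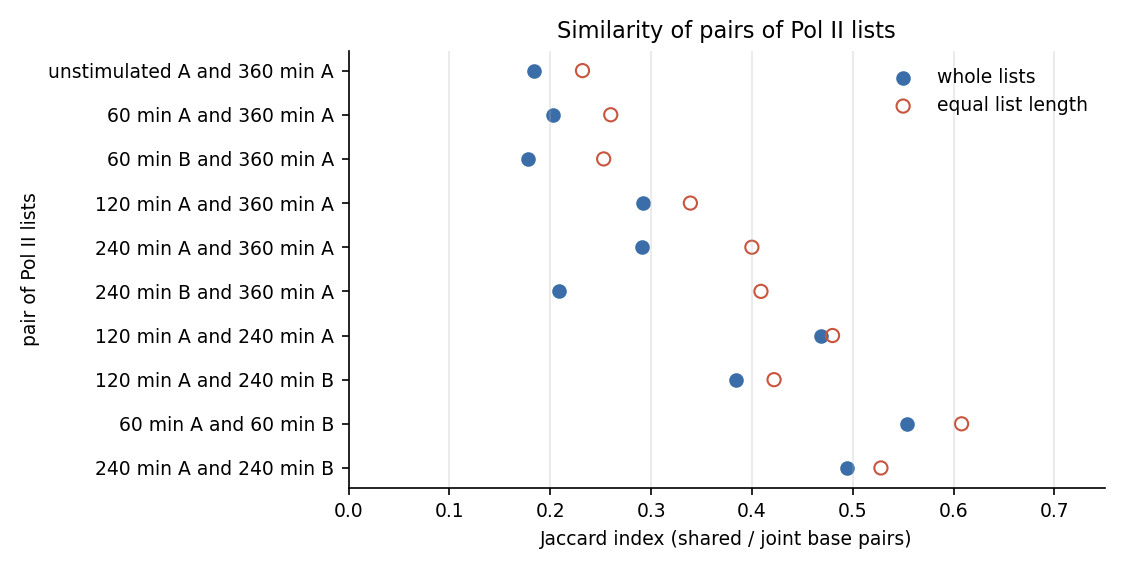
Jaccard index of pairs of Pol II lists, with all regions up to 100 kb (filled points) and with 2636 regions per list (open points). At equal length the pairs of 360 with 240 min lie at 0.4 and 0.409, above the pairs of 360 min with earlier times and below the pair of 240 min libraries at 0.528.

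The regions of the 3 lists were joined where they overlapped by at least 1 bp, which gave 4139 merged regions. All 3 lists held 1167 of them (28.2%). Another 940 (22.7%) were held by both 240 min lists and not by the 360 min list, and are called 240 min-only regions here. The 360 min list alone held 339 (8.19%), called 360 min-only regions. Of the rest, 387 were in 240 min A alone, 1119 in 240 min B alone and 187 in the 360 min list and 1 list of 240 min. For comparison, the 240 min libraries merged with each other gave 4133 regions, of which 477 (11.5%) were in A alone and 32.5% in B alone. The 60 min libraries gave 3895, with 698 (17.9%) in A alone and 857 (22.0%) in B alone. The 8.19% at 360 min lay under all 4 of these shares, and the 22.7% lay between the 22.0% and the 32.5%. The rules differ, since a 240 min-only region had to be in both 240 min lists.

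Which of the counts was larger depended on the length of the lists. At equal length there were 2587 merged regions, of which 694 (26.8%) were 360 min-only, 297 (11.5%) were 240 min-only and 884 were in all 3 lists. The 240 min libraries then had 542 (25.5%) in A alone and 251 (11.8%) in B alone. The excess of 240 min-only over 360 min-only regions in the whole lists thus turned to a deficit. Only the 240 min lists lost regions to the cut, which by itself tends to raise the 360 min-only and lower the 240 min-only count. The turn is therefore not a result about time. The widths did not turn. The 360 min-only regions had a median width of 170 bp in the whole lists and 200 bp at equal length, the 240 min-only regions 19390 and 10330 bp, and the regions of all 3 lists 31120 and 21755 bp. In the whole lists 327 of the 339 360 min-only regions were up to 1 kb wide, and 572 of the 940 240 min-only regions were over 10 kb. Narrow regions in 1 list alone were also usual for 240 min A (median 370 bp), but not for 240 min B (8010 bp).

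**Figure D3:**
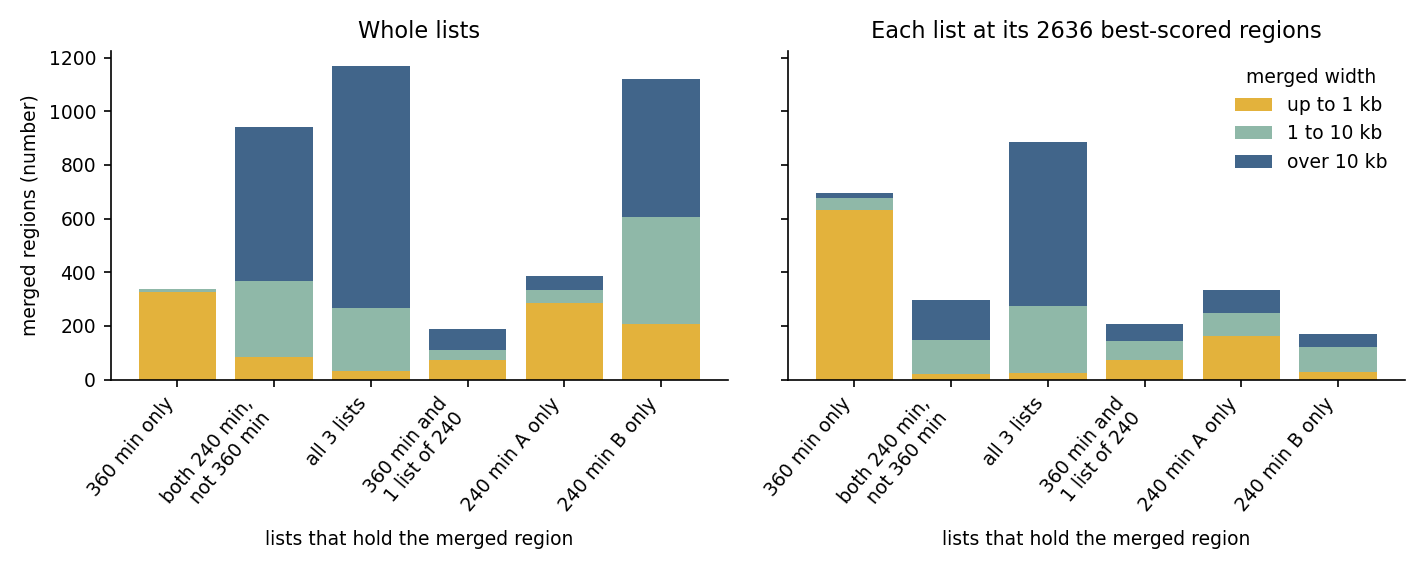
Number of merged regions by the lists that hold them, split by merged width, for whole lists (left) and 2636 regions per list (right). The 339 regions of 360 min alone are nearly all up to 1 kb wide, and they number more than the 240 min-only regions on the right (694 against 297) but fewer on the left (339 against 940).

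The same rule was applied to each other Pol II list against both 240 min lists. Of the regions held by both 240 min lists, the 360 min list held 55.4%, the 120 min list 74.3%, the 60 min lists 66.8% and 68.8% and the unstimulated list 68.2%. That was the lowest share of the 5, in the shortest list. At equal length it held 74.9%, behind the 120 min list (84.4%) and ahead of the 60 min lists (61.9% and 59.3%) and the unstimulated list (50.8%). The regions that each list held and neither 240 min list did numbered 339 (8.19%) at 360 min, 354 (8.63%) at 120 min, 957 (20.4%) and 1005 (21.3%) at 60 min and 2104 (35.8%) in unstimulated cells. The median width of these regions was 170 bp at 360 min and 575, 1240, 8790 and 905 bp in the 120 min, 60 min A, 60 min B and unstimulated lists. At equal length the counts were 694 (26.8%) at 360 min, 447 (18.9%) at 120 min, 792 (28.4%) and 764 (27.4%) at 60 min and 1190 (36.8%) in unstimulated cells. In the whole lists 360 min thus had the fewest such regions, and at equal length it had more than 120 min and a share near those of 60 min.

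The 100 kb limit decided part of the calls. A wider 360 min region, over 100 kb, lay across 357 of the 940 240 min-only regions (38.0%): it was up to 200 kb wide for 87, 200 kb to 1 Mb for 122 and over 1 Mb for 148. Likewise 198 of the 339 360 min-only regions (58.4%) lay in a wider 240 min region, which was over 1 Mb for 95. No region of any width of the other time touched 583 240 min-only and 141 360 min-only regions. The 583 had a median width of 19240 bp and the 141 one of 160 bp, close to those of the full sets. The nearest region of the other time up to 100 kb was a median of 136805 bp away from a 240 min-only region and 96600 bp away from a 360 min-only region. Within 10 kb of one lay 147 of the 240 min-only and 31 of the 360 min-only regions.

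Where a region was held at both times, less of it was covered by 360 min regions up to 100 kb in the whole lists. Wider regions were left out of this coverage at both times. Among the 6 best-ranked common regions, a wider 240 min region touched 6 and a wider 360 min region 4. A low covered share at 360 min therefore does not show that no wider region was called there. Over the 1167 regions of all 3 lists the median covered share was 91.7% in 240 min A, 95.5% in 240 min B and 45.0% at 360 min. The 360 min value was below both 240 min values in 795 regions (68.1%), above both in 196 (16.8%) and between them in 176. Under 10% was covered in 381 regions at 360 min, in 80 in 240 min A and in 13 in 240 min B. At least 90% was covered in 281, 632 and 750. At equal length the 884 common regions had medians of 92.8%, 85.7% and 82.6%, and 360 min was below both in 442 (50.0%) and above both in 264 (29.9%). Over all widths the lower coverage at 360 min was thus much smaller at equal length, where only the 240 min lists were cut. The 360 min median then lay near that of 240 min B. The lower coverage remained among the 249 regions of 1 to 10 kb, with medians of 89.6%, 88.5% and 58.6% in 240 min A, 240 min B and 360 min. There 360 min was below both in 64.3% and above both in 15.7%. For the 609 regions over 10 kb the medians were 94.2%, 85.0% and 89.8%.

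A set of wide domains was then defined from the 240 min lists alone, as merged regions of these lists that were over 10 kb and held by both. There were 1515, on which the 360 min list and the 4 earlier lists could be set side by side. The 360 min list touched 62.2% of them (943), the 120 min list 79.3%, the 60 min lists 71.1% and 72.7% and the unstimulated list 72.5%. The mean covered share of a domain came to 30.2% at 360 min, 55.1% at 120 min, 47.1% and 54.7% at 60 min and 44.9% in unstimulated cells. Both values were lowest at 360 min. Regions over 100 kb were left out of every list here, so an untouched domain can still lie in a wider 360 min region. Among the domains it touched, 481 (51.0%) were covered over at most 50% of their length, against 21.6% to 36.2% of those touched by the 4 earlier lists. In these 481 domains, with a median length of 41750 bp, the 360 min list covered a median of 1040 bp. The covered piece lay nearer to an end of the domain than to its middle in 71.3% of cases, a share that ranged from 65.8% to 72.0% in the earlier lists. Of the base pairs of these pieces, 26.2% lay in H4ac regions called in both 240 min H4ac lists, and of the rest of the domains 7.23%. The same shares were 18.4% to 19.7% and 6.06% to 6.87% for the earlier lists, so pieces richer in H4ac than the rest of the domain were also seen with each of the 4 earlier lists.

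At equal length 739 such domains remained and the 360 min list no longer ranked last. It touched 79.6%, after the 120 min list (87.4%) and before the 60 min lists (63.6% and 60.8%) and the unstimulated list (52.2%). Its mean covered share was 54.6%, between 67.5% at 120 min and the 44.5%, 45.6% and 29.6% of 60 min A, 60 min B and unstimulated cells. Of the domains touched at 360 min, 29.3% were covered over at most 50% of their length, inside the range of 19.2% to 42.5% of the earlier lists, with a median piece of 2565 bp. The excess of such domains in the whole lists was thus gone. List length moved with the low coverage of the whole lists, and the part of sequencing depth in it was not tested.

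**Figure D4:**
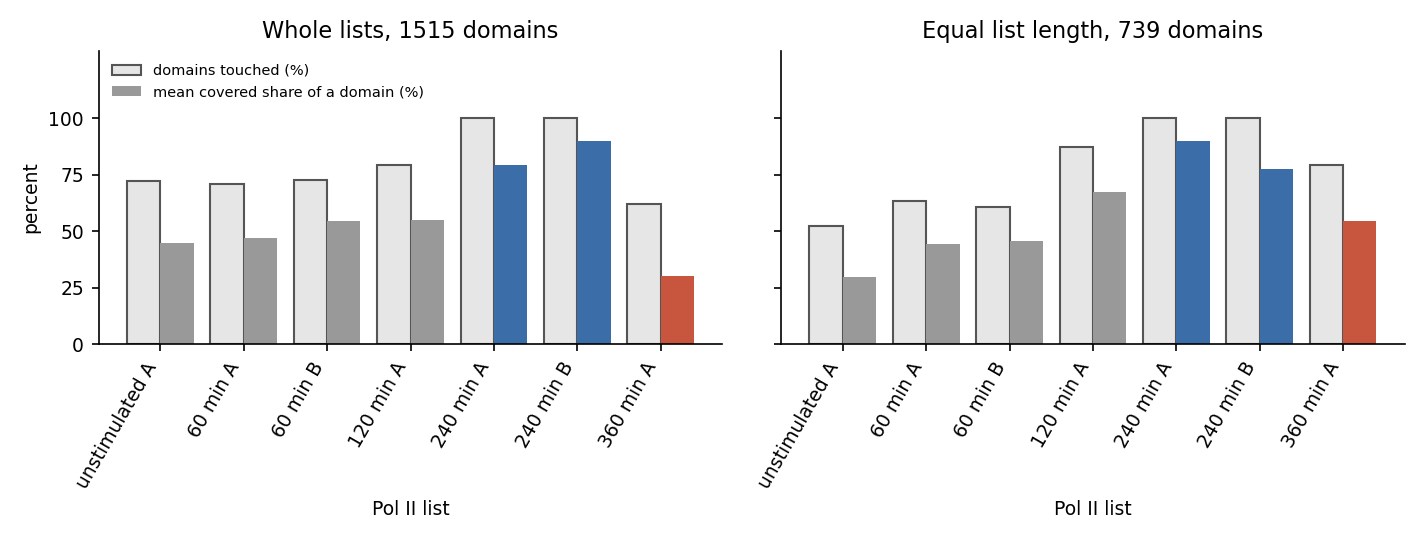
Share of the 240 min domains over 10 kb that each Pol II list touches (outlined bars) and the mean share of a domain's length that it covers (filled bars), in percent, for whole lists (left) and 2636 regions per list (right). Only regions up to 100 kb are counted. The 240 min lists touch all domains by construction, and the 360 min list is lowest on the left (62.2% touched, 30.2% covered) and second to 120 min among the other times on the right (79.6% and 54.6%).

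The earlier Pol II lists were not used to define the classes, and they held the classes to different extents. Regions of all 3 lists were the most often present before 240 min: 83.6% were in the unstimulated list, 81.2% and 82.2% in the 60 min lists, 86.5% in the 120 min list and 63.6% (742) in all 4. Of the 240 min-only regions, 55.5% were in the unstimulated list, 55.5% and 57.9% in the 60 min lists and 62.8% in the 120 min list. All 4 earlier lists held 26.1% of them (245) and none held 12.7% (119). An LPS list before 240 min and not the unstimulated list held 31.8% (299), counting regions up to 100 kb. Wider regions of the unstimulated and 360 min lists were left out of this count. A wider 360 min region lay across 38.0% of all 240 min-only regions, so absence at 360 min is not shown for all of the 299. The 95% Wilson interval of the 62.8% in the 120 min list ran from 59.6% to 65.8%. Such intervals cover counting error over regions only and treat neighbouring regions as independent.

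The shares of the 360 min-only regions became smaller from the unstimulated to the 120 min list. The unstimulated list held 39.5% of them (95% interval 34.5% to 44.8%), the 60 min lists 22.1% and 16.5% and the 120 min list 10.0% (7.27% to 13.7%). The lists also differed in their number of regions up to 1 kb: 2885 in unstimulated cells, 1709 and 1215 in 60 min A and B and 1288 at 120 min. The part of these numbers in the order was not tested. None of the 4 earlier lists held 46.9% (159), and the unstimulated list alone held 21.5% (73). Regions that were listed before stimulation, in neither 240 min list up to 100 kb and listed again at 360 min thus numbered 134. Of these, 73 lay inside a wider 240 min region and 61 were touched by no 240 min region of any width. The unstimulated share was not particular to them: 50.4% of the regions of 240 min A alone and 38.9% of those of 240 min B alone were in the unstimulated list too, the longest of the 4 earlier lists. The 120 min share was the lower one, at 10.0% against 26.1% and 25.2% for the regions of 240 min A and of 240 min B alone.

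The order over the earlier lists moved with width. Among regions up to 1 kb in the whole lists, the 85 240 min-only regions also went down, from 70.6% in the unstimulated list to 61.2% and 60.0% at 60 min and 47.1% at 120 min. The 32 narrow regions of all 3 lists went from 87.5% in the unstimulated list to 62.5% at 120 min, and the 327 narrow 360 min-only regions from 39.1% to 9.79%. In the whole lists these narrow classes thus shared a direction and differed in level. Narrow regions of 240 min A alone and of 240 min B alone were in the 120 min list at 21.3% and 24.0%, above the 9.79% of the 360 min-only ones. At equal length the direction was not shared. The 19 narrow 240 min-only regions went up from 36.8% in the unstimulated list to 63.2% at 120 min. The 26 narrow regions of all 3 lists had 88.5% in both lists, and the 632 narrow 360 min-only regions went from 26.4% to 10.8%.

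At equal length the unstimulated list held 29.5% of the 360 min-only and 27.9% of the 240 min-only regions, so the difference between them at that point was gone. The 120 min list still held few of the first (11.2%) and many of the second (70.0%). An LPS list before 240 min and not the unstimulated list held 57.6% of the 240 min-only regions (171 of 297), against 31.8% in the whole lists. Of the 583 240 min-only regions that no 360 min region of any width touched, 56.9% were in the unstimulated list and 62.3% in the 120 min list. For the corresponding 141 360 min-only regions these were 43.3% and 10.6%, close to the values for the full sets.

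**Figure D5:**
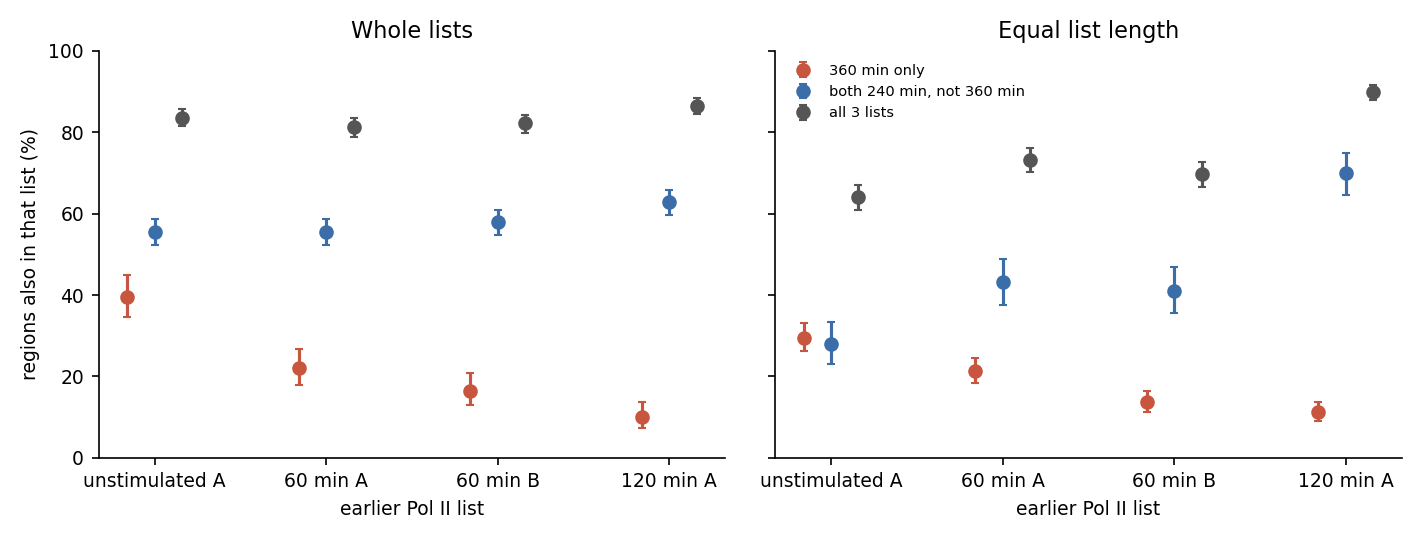
Percent of the 360 min-only regions, the 240 min-only regions and the regions of all 3 lists that each earlier Pol II list also holds, with 95% Wilson intervals, for whole lists (left) and 2636 regions per list (right). The 360 min-only regions are rarely in the 120 min list (10.0% and 11.2%), and their share in the unstimulated list lies under that of the 240 min-only regions on the left but not on the right.

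H4ac lists exist for up to 240 min, with 2 libraries at each of 4 times. Both 240 min H4ac lists touched 89.5% of the Pol II regions of all 3 lists. For the 240 min-only and 360 min-only regions the shares were 77.7% and 52.2%. No H4ac list touched 2.31%, 8.09% and 24.5% of these classes, in the same order. Each list could touch a region at its own place, so a share with both lists is not one with H4ac common to both. Since the 360 min-only regions are narrow, the shares were also taken within 1 class of width. Among regions up to 1 kb the shares with H4ac at 240 min were 68.8% of 32 regions in all 3 lists, 75.3% of 85 240 min-only regions and 51.4% of 327 360 min-only regions. Narrow regions of 240 min A alone reached 80.8% and those of 240 min B alone 46.2%, so the 360 min value lay between those of single 240 min libraries. At equal length the order of the narrow classes changed. The shares were then 53.8% of 26 regions in all 3 lists, 47.4% of 19 240 min-only and 59.7% of 632 360 min-only regions. H4ac in both unstimulated lists touched 59.6% of the 360 min-only regions and 74.7% of the 240 min-only regions. Only 3 of the 339 360 min-only regions and 32 of the 940 240 min-only regions had H4ac at 240 min but in no unstimulated list.

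Counted in base pairs, 13.1% of the length covered by Pol II at 360 min lay in the H4ac regions common to both 240 min lists, against 9.85% for 240 min A and 8.35% for 240 min B. At equal length the 240 min values were 11.5% and 12.3%, nearer to the 13.1% of 360 min. The 17.1 Mb covered in all 3 lists had 13.4% in H4ac. The 31.1 Mb covered in both 240 min lists and not at 360 min had 8.21%, and the 2.34 Mb covered at 360 min alone had 10.2%. The Pol II length that was listed at both times was thus richer in H4ac than the length that only 240 min listed.

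The transcription factors, which were sampled at up to 240 min, touched a minority of the regions of each class. At least 2 of the 4 LPS lists of the NF-κB subunit p50 touched 13.5% of the regions of all 3 lists, 5.74% of the 240 min-only and 1.47% of the 360 min-only regions. An LPS list of the NF-κB subunit p65 with the letter X touched 9.77%, 3.94% and 2.36%. For ATF3, a stress-induced transcription factor that restrains LPS-induced genes, list A of 240 min touched 27.6%, 19.5% and 1.77%. Lists B and C of the same group touched at most 3.08% and 5.74% of any of these classes, so the ATF3 shares depended on the library. Histone H3 trimethylated at lysine 27 (H3K27me3), a mark of silenced chromatin, touched 4.03%, 2.13% and 1.18% at 240 min. Regions of 240 min A alone and of 240 min B alone were touched at 2.58% and 3.66% by p50, 3.88% and 2.95% by p65 X and 5.94% and 12.5% by ATF3 A.

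This order of the classes was not kept among regions up to 1 kb, where the counts were small. In the order all 3 lists, 240 min-only and 360 min-only, p50 touched 9.38% of 32, 0 of 85 (95% interval up to 4.32%) and 1.53% of 327. For p65 X the narrow shares were 3.12%, 7.06% and 2.45%, and for ATF3 A 6.25%, 7.06% and 1.53%. H3K27me3 at 240 min touched 3.12%, 0 of 85 and 1.22%. Narrow regions of 240 min A alone were near the 360 min-only ones, with 0.348% for p50 and 2.09% for ATF3 A, and those of 240 min B alone had 1.92% and 6.25%.

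By position, the best-scored 360 min-only region was chr2:163896651-163896790 (mm9, 140 bp), with a score of 2.7804. It was absent from both 240 min lists at every width, was held over its whole length by both 60 min lists and the 120 min list and was missing from the unstimulated list. The nearest 240 min region up to 100 kb was 44620 bp away. For this and all regions named below, the earlier Pol II lists were looked up for regions up to 100 kb only. The second, chr13:93300601-93300720 (120 bp, score 2.5234), was held by 60 min B among the earlier lists and touched by all 8 H4ac lists. The fourth, chr17:27691551-27703120, was the only one of the 12 best-scored over 1 kb. Its 11570 bp were covered in full by the unstimulated and the 60 min B list and over 11320 bp by 60 min A, and neither the 120 nor a 240 min list held it up to 100 kb. A 240 min region of 2822470 bp spanned it, however, so its absence at 240 min holds for narrower regions alone. In no earlier Pol II list were 3 of the 12: chr7:137977821-137978020 (200 bp), chr8:124431391-124431550 (160 bp) and chr11:43561361-43561460 (100 bp). Of these the first and second were touched by no H4ac list, while the one on chromosome 11 was touched by 7. The unstimulated list held 7 of the 12, and both 60 min lists held 4.

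Among the 12 best-ranked 240 min-only regions, 9 lay inside a 360 min region wider than 100 kb. Each of the 9 lay in it over its full length, and for 7 of them that region was under 150 kb wide. The best-ranked, chr11:67400121-67509260, was covered over 99170 and 109140 bp in 240 min A and B, and a 360 min region of 113670 bp spanned it. The 128030 bp at chr3:78857991-78986020 were covered over 126620 and 127930 bp at 240 min and 123880 bp at 120 min. No unstimulated or 60 min region up to 100 kb touched them, and a 360 min region of 129620 bp spanned them. The neighbours chr8:68910081-68984400 and chr8:68986201-69011610 were both inside 1 region of 103840 bp. Such regions were under a called Pol II region at 360 min, and the width limit alone made them 240 min-only.

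The other 3 were touched by no 360 min region of any width. The first of them, chr5:44271921-44273110, was covered over 1060 and 1130 of its 1190 bp at 240 min. It was in no other Pol II list up to 100 kb. Its scores were 3.7093 and 5.0599, and 6 of the 8 H4ac lists touched it, none of them unstimulated. The second, chr9:110955861-110985460, was covered over 28170 and 29600 bp at 240 min and over 4840, 4210 and 6470 bp in 60 min A, 60 min B and 120 min, with no part in the unstimulated list. At 360 min the nearest region was 70500 bp away. The third, chr13:89787861-89882080, was covered over 93740 and 94200 bp at 240 min and 69400 bp at 120 min and was missing from the unstimulated and 60 min lists. Counting regions up to 100 kb, all 3 were thus missing from the unstimulated list and were widest at 240 min. They were missing at 360 min at every width.

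The next-ranked 240 min-only regions with no 360 min region of any width were looked up after the values above were seen. Region chr3:142190851-142194450 was covered over 1270 and 3600 bp at 240 min, 3080 bp in 60 min A and 3520 bp at 120 min, with a 360 min region 2840 bp away. Region chr5:30339051-30351300 was covered over 11250 and 12250 bp at 240 min, 11030 bp at 120 min and 130 bp in 60 min A, and 6 H4ac lists touched it, none of them unstimulated. Region chr10:87771161-87820380 was covered over 49220 and 45050 bp at 240 min, 40780 bp at 120 min and 36900 bp in 60 min B. Region chr8:64511211-64519340 was covered over 8130 and 6280 bp at 240 min. It was in no other Pol II list up to 100 kb and in no H4ac list. Region chr12:83270081-83349900 was covered over 12790 and 79820 bp at 240 min, 4160 bp at 120 min, 190 bp in 60 min B and 260 bp in unstimulated cells. The first 4 were missing from the unstimulated list and the fifth was not. The best-ranked regions do not stand for the whole set here, since 56.9% of all 583 such regions were in the unstimulated list.

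Whether the 240 min-only regions gathered in places was not tested. The 1 Mb windows with the most of them held 8 each, and 1 of these windows is given here after its values were seen. In the 1 Mb window that starts at position 57000001 of chromosome 6 there were 8 240 min-only regions and no 360 min-only or common region. They lay between 57452121 and 57628460 and ranged from 890 to 34370 bp, and 7 of the 8 were in the 120 min list. A 360 min region of 109530 bp touched 7 of them, so only the 34370 bp region chr6:57452121-57486490 was untouched at every width. That region was covered over 34250 and 34160 bp at 240 min. Regions chr6:57624711-57625600 and chr6:57625601-57628460 of the window adjoin without overlap and so were counted apart. Over chromosomes, the 240 min-only share of merged regions ran from 17.0% (chromosome 11) to 29.8% (chromosome 13) around the 22.7% of all. The 360 min-only share ran from 4.73% (chromosome 12) to 16.3% (chromosome 18), with 15.5% on the X chromosome.

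Of the 6 best-ranked regions of all 3 lists, some kept their extent over the 7 lists and others did not. Region chr11:83459101-83480510 (21410 bp) was covered over 21230 and 21350 bp at 240 min, 20840 bp at 360 min and 20810 to 21410 bp in the 4 earlier lists. Region chr5:143657921-143668410 (10490 bp) was covered over 9430 and 10320 bp at 240 min and 8860 bp at 360 min, and over 8550 to 9640 bp in the earlier lists. The other 4 differed more between lists. Region chr14:103431821-103462470 was covered over 4210 bp in unstimulated cells, 16750 and 30220 bp at 240 min and 17960 bp at 360 min. Region chr19:10004231-10062270 was covered over 18140 bp in 240 min A, 57770 bp in 240 min B and 38100 bp at 360 min, and so lay between the 240 min libraries. Region chr7:53963761-53971150 was covered over 410 bp in unstimulated cells, 0 and 4650 bp at 60 min, 5330 bp at 120 min, 7060 and 6630 bp at 240 min and 7230 bp at 360 min. Region chr12:27125191-27171750 was covered over 45950 and 46050 bp at 240 min and 32440 bp at 360 min. All 6 best-ranked common regions were in the unstimulated list as well. No gene is named for any region, because an annotation of build mm9 was not used here, and the labelled cell type was for the same reason not checked against marker genes.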

How the data were processed

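ChIP-seq lists of the 3 Pol II libraries were compared, with the other 32 libraries beside them. Each deposited list gave position, scale and score for every region. The score is as the authors computed it and was used for ranks inside a list only. Coordinates are in mm9, per the submitters' processing notes. Not given in the sources used here are the aligner, the caller, its thresholds and read depth. Lists were called per library, and regions nest within each other at several scales, so regions up to 100 kb were kept (10 kb for p50, p65, ATF3 and H4ac) and joined where they overlapped by 1 bp. Positions are written 1-based. Named regions were the 12 360 min-only with the best score, the 12 240 min-only with the best mean rank in both 240 min lists and the 6 best-ranked in all 3. Shares carry 95% Wilson intervals, and the precision that read depth gives is unknown.

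The alternatives were other width limits, equal list length, the better-scored 50% of each list, 50% coverage of a merged region and leaving out each 240 min list. Counts that allow for wider regions of the other time were added after seeing the data. The members and lists were chosen with earlier results of these data known. Gene lists were set up but not used, for want of an mm9 annotation here. Assignment to classes was tested on simulated data, where 1300 of 1300 planted regions were put in their class. The planted regions lay apart from each other, so the joining of neighbouring regions by a wide one was not tested. Python 3.11.15, numpy 2.4.6, pandas 2.3.3, scipy 1.17.1 and matplotlib 3.10.9 were used.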

Additional observations from a re-analysis of the deposited data

How the results depend on the processing

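Of 60 alternative values, 16 stayed within a set tolerance of the reported one, which was 1.5 times for a count, the 95% interval for a share and the SD between both 240 min lists for the index and the ratio. The counts of 360 min-only, 240 min-only and common regions were 132, 283 and 515 with all widths, 768, 813 and 648 with regions up to 10 kb, 1057, 229 and 109 up to 1 kb, 694, 297 and 884 at equal length, and 202, 561 and 721 in the top 50% by score. With 50% of a merged region required to be covered, common regions fell to 487. Leaving out 240 min A or B gave 438 and 505 360 min-only, 2960 and 1726 240 min-only and 1359 and 1297 common regions. The 240 min-only count thus rests on requiring both libraries. Allowing for wider regions of any width left 141 and 583, and of up to 1 Mb 236 and 731.

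In the order all widths, 10 kb, 1 kb and equal length, the share of 360 min-only regions in the unstimulated list was 54.5%, 32.7%, 19.2% and 29.5%, and 45.9% to 49.5% without 1 of the 240 min lists. The share of 240 min-only regions in the 120 min list was 72.1%, 52.5%, 36.7% and 70.0% (48.3% to 55.5%), and in H4ac at 240 min 86.9%, 66.4%, 65.5% and 69.4% (52.5% to 67.8%). The H4ac share of 360 min-only regions was 61.1% at equal length and 48.2% to 56.4% in the others. The mean Jaccard index of 360 with 240 min was 0.33, 0.147, 0.0615 and 0.404, against 0.25. The covered length at 240 min over that at 360 min was 2.07, 3.81, 1.46 and 1.35, against 3.25. The cause of these shifts was not tested. Counts per gene were not run, because no mm9 annotation was used. No paired analysis was possible because only 1 library exists at 360 min, so fewer than 2 letters are shared.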
